A study of Mus musculus with 24 samples.

Results

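The genes described here are Kcnj3, Kcnj6 and Kcnj9, which encode the GIRK1, GIRK2 and GIRK3 subunits of the G protein-gated inwardly rectifying potassium channels. They were taken by symbol from a table of snRNA-seq counts of the ventral hippocampus, and they are 3 of its 33902 genes. The RNA came from the nuclei of adult male mice of 2 inbred strains, C57BL/6J (B6) and DBA/2J (D2), aged 10 to 16 weeks, with no treatment or engineered allele in either strain. Each library pooled tissue from about 2 animals, and there were 2 libraries per strain, sorted so that NeuN-positive nuclei, which are mostly neuronal, were in excess. A parallel set of 4 snATAC-seq libraries of the same strains and tissue, sorted without NeuN, was used for chromatin accessibility at the same genes. Libraries are named here by strain and by the number their columns carry, 2 or 3.

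GIRK channels are tetramers that open when the beta-gamma subunits of an inhibitory G protein are released by an activated receptor, such as the GABA-B, adenosine A1, muscarinic M2 or opioid receptors. The potassium current that follows hyperpolarizes the neuron and slows its firing. In the hippocampus most channels combine GIRK1 with GIRK2 or GIRK3. GIRK1 does not reach the cell surface without a partner, GIRK2 can form channels by itself and carries an export signal, and GIRK3 carries a signal that directs channels to endosomes and lysosomes. Kcnj9 lies in a segment of distal chromosome 1 that has been mapped in crosses of B6 and D2 for sedative withdrawal and other behaviors.

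The 3 genes differ greatly in size. In the GENCODE annotation of mm10, Kcnj3 occupied chr2:55435970-55598145 on the forward strand, a span of 162.2 kb, with 4 exons in its longest transcript. Kcnj6 occupied chr16:94748636-94997701 on the reverse strand, a span of 249.1 kb, with 5 exons in the transcript that reaches its 3′ end. Kcnj9 occupied only 8.82 kb, chr1:172320501-172329318 on the reverse strand, with 4 exons. Introns were retained in the counts, so reads could come from the whole span. The RNA libraries were made with a 3′ kit, so counts need not rise in proportion to the span. Between genes, levels are given in CPM and per kb of span, and neither is read as an amount of transcript.

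The bases just upstream of the 3 start sites are shown because a snATAC-seq peak covered each start site and its accessibility was compared between the strains. They are the B6 reference sequence from RefSeq (GRCm38.p6), 5′ to 3′ on the gene's own strand, for chr1:172329323-172329572 (Kcnj9), chr2:55435720-55435969 (Kcnj3) and chr16:94997702-94997946 (Kcnj6). Capitals mark the one match found to any of 3 motifs searched on both strands. They were the TATA box, spelled TATAAA, the GC box that Sp1 family proteins bind, spelled GGGCGG, and the core of the cAMP response element, spelled TGACG.
Kcnj9: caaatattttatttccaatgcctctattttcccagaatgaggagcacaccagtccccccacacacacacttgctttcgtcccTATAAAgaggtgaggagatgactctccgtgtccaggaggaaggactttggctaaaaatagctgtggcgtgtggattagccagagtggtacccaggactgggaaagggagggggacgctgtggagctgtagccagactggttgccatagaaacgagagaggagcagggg
Kcnj3: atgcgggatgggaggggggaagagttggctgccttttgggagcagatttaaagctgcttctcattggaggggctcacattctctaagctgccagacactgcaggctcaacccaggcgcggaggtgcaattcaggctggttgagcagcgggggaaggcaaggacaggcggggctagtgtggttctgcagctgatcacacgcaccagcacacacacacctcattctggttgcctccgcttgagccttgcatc
Kcnj6: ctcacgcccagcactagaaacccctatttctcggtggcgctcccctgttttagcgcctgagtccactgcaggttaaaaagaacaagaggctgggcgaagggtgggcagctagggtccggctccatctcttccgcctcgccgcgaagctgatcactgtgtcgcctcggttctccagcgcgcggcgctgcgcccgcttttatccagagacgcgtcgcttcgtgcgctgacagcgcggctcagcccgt
TATAAA occurred in the Kcnj9 window at 168 to 163 bases before the start, and 12.4% of 32851 RefSeq promoters of up to 250 bases held these letters. The shares were 32.7% for GGGCGG and 17.8% for TGACG, which had no match in these windows. The Kcnj6 window held 26 CpG sites in 245 bases, more than 90.4% of all promoters, at a GC content of 63.3%. Kcnj3 and Kcnj9 held 7 and 5 CpG sites, near the median of 6 over all promoters, at GC contents of 58.4% and 52.0%.

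The snRNA-seq columns used hold 14 labelled cell types (8 excitatory, 5 non-neuronal and the inhibitory type Inh-MGE) and between 40331488 and 52947791 counts per library, with 76 to 1489 nuclei and 225029 to 11352265 counts per type and library. Fixed marker lists were highest where the labels place them for the dentate gyrus (Exc-DG), CA3 (Exc-CA3), MGE interneurons, astrocytes, oligodendrocytes, their precursors (NN-OPC), microglia (NN-MGC) and VLMC. Of the CA1 markers, Fibcd1 had a mean of 65.9 CPM (counts scaled by the library size) in Exc-CA1-Galntl6 and 45.4 CPM in Exc-CA1-Camk2d but only 7.42 CPM in Exc-CA1-Fras1, where Wfs1, at 3.64 CPM, was near its level in Exc-DG (3.78 CPM). These markers go against the CA1 label of Exc-CA1-Fras1, and the type names below are the authors' labels and no more. In every type more tested genes were at 0 in both B6 libraries only than in both D2 libraries only, for instance 1856 against 108 in Exc-DG and 3556 against 137 over all excitatory nuclei. D2 reads were mapped to a reference with D2 SNPs and B6 reads to mm10, so strain and reference cannot be told apart in any comparison of the strains. All 3 GIRK genes were counted in both strains.

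Each of the 3 genes was highest in an excitatory type. The types did not come in the same order for each gene, and the plot of levels by cell type shows 3 different orders. Kcnj3 was highest in Exc-Gpc6, with 608 and 648 CPM in B6 and 662 and 706 CPM in D2. Exc-DG followed at a mean of 574 CPM (range over the 4 libraries 557 to 610), and these neighbours in the order overlapped. Kcnj3 was lowest among excitatory types in Exc-CA3, at 239 CPM (223 to 252). Inh-MGE, at 336 CPM (266 to 399), lay within the excitatory range. Of the 13 neighbouring pairs of types in the Kcnj3 order, 9 overlapped over libraries, and the steps without overlap came after Exc-DG, Exc-ENT, Exc-CA3 and NN-OPC.

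**Figure D1:**
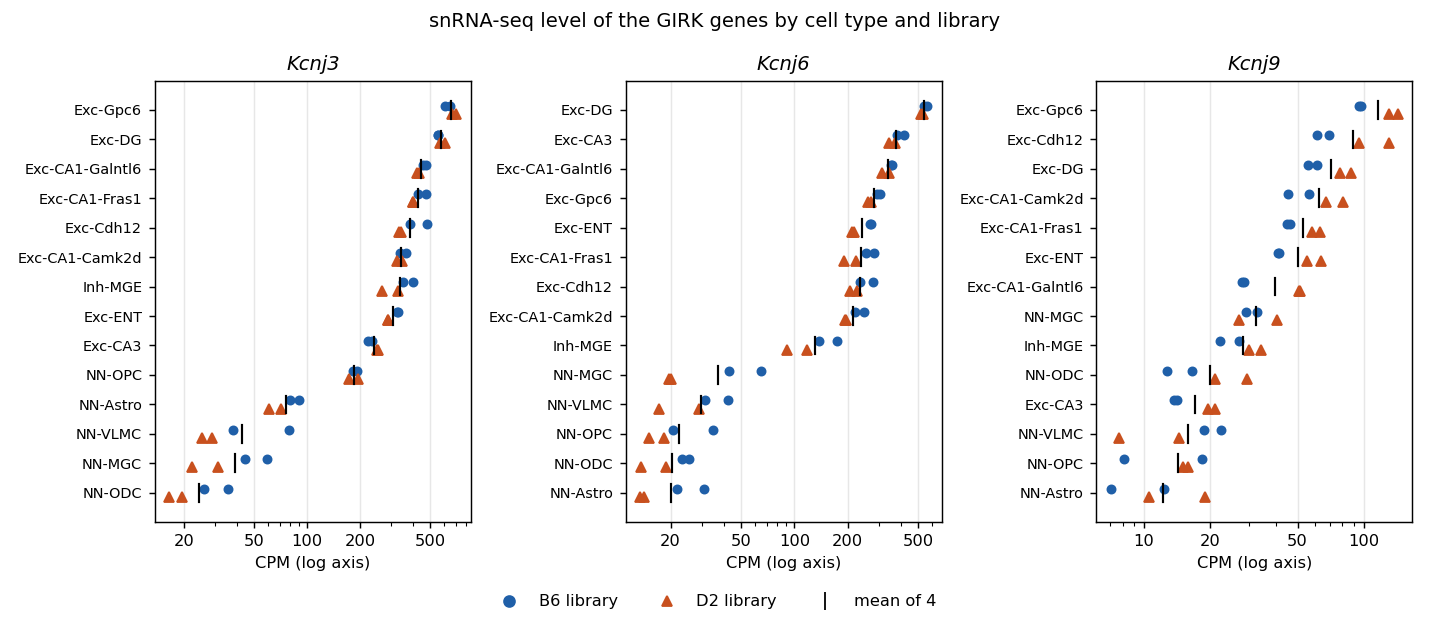
Level of each GIRK gene (CPM, log axis) in 14 cell types, ordered by the mean of the 4 libraries (black tick), with B6 libraries as blue circles and D2 libraries as orange triangles. Kcnj3 and Kcnj6 fall steeply below the neurons except for Kcnj3 in NN-OPC, while Kcnj9 in Exc-CA3 (17.1 CPM) sits among the non-neuronal types.

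Kcnj6 had another order. Exc-DG was highest at 538 CPM (517 to 561), and no library of any other type reached its lowest library. That lead held for CPM only, since per 100 nuclei Exc-DG had 407 counts (375 to 455) and Exc-CA3 had 397 (336 to 480). Exc-CA3, the lowest excitatory type for Kcnj3, was the next highest for Kcnj6, with 377 and 414 CPM in B6 and 343 and 368 CPM in D2. The lowest excitatory type was Exc-CA1-Camk2d at 213 CPM (194 to 246), and Inh-MGE lay below every excitatory library at 130 CPM (90.3 to 174). All 5 non-neuronal types had means between 20.1 and 36.9 CPM. Again 9 of 13 neighbouring pairs overlapped.

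Kcnj9 was highest in Exc-Gpc6 at 117 CPM (94.8 to 143), followed by Exc-Cdh12 at 89.0 CPM and Exc-DG at 70.6 CPM. Exc-CA3 was the lowest excitatory type at 17.1 CPM (13.7 to 21.0), so that its range overlapped those of oligodendrocytes (NN-ODC, 12.8 to 29.3 CPM) and VLMC (7.66 to 22.4 CPM). Microglia (NN-MGC), at 32.2 CPM (27.0 to 40.1), lay above Exc-CA3 in every library, on 11 to 22 counts per library. Non-neuronal nuclei had fewer counts each, and per 100 nuclei Exc-CA3 had 18.0 counts of Kcnj9 against 3.70 to 6.47 in the 5 non-neuronal types. All 13 neighbouring pairs in the Kcnj9 order overlapped when both strains were pooled, and the strain difference described below widens each range. The highest excitatory type exceeded the lowest by 6.84 times for Kcnj9, 2.74 times for Kcnj3 and 2.54 times for Kcnj6. Counted per nucleus, with no scaling to the total, the ratios of these same types were 4.44, 1.78 and 2.01. The lowest excitatory type for Kcnj6 was then Exc-Cdh12 (172 counts per 100 nuclei), and Exc-DG exceeded it by 2.37 times. In sums over nuclei, fewer nuclei with a transcript and less of it per nucleus cannot be told apart.

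Per kb of gene span Kcnj9, the lowest of the 3 genes in CPM, was the highest in excitatory neurons. Over all excitatory nuclei Kcnj9 had 4.68 and 5.19 CPM per kb in B6 and 7.05 and 7.69 CPM per kb in D2. Kcnj3 had 2.56 to 2.70 CPM per kb and Kcnj6 1.32 to 1.52 CPM per kb over the 4 libraries. These ranges did not overlap, but a length taken from the whole span counts each base of an intron as much as a base of an exon. With a 3′ kit counts need not rise with the span, so the order per kb is not read as an order of transcripts. The fourth gene of the family, Kcnj5, which encodes the GIRK4 subunit best known from the heart, was at 0.407 to 0.554 CPM over all excitatory nuclei.

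The balance between the genes differed by cell type. The ratio of Kcnj6 to Kcnj3 CPM was highest in Exc-CA3, at 1.69 and 1.78 in B6 and 1.37 and 1.47 in D2. It was 0.939 (mean of 4 libraries) in Exc-DG, 0.431 in Exc-Gpc6 and 0.382 in Inh-MGE, and the 4 libraries of Exc-CA3 lay above those of every other type. Kcnj9 relative to Kcnj6 ran the opposite way among excitatory types, lowest in Exc-CA3 (0.0332 to 0.0612) and highest on the mean in Exc-Gpc6 (0.313 to 0.531), although 1 library of Exc-Cdh12 reached 0.633. An opposite order is partly built in, since Kcnj6 is the numerator of the first ratio and the denominator of the second. Exc-CA3 was also the lowest excitatory type for both Kcnj3 and Kcnj9. These are ratios of CPM, compared here between types and not read as a ratio of transcripts. Across the 8 excitatory types, log2 levels of Kcnj3 and Kcnj9 had a Pearson r of 0.759, those of Kcnj3 and Kcnj6 an r of 0.260 and those of Kcnj6 and Kcnj9 an r of -0.260. The types come from the same 4 libraries and the same clustering, so the coefficients are descriptions only.

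**Figure D2:**
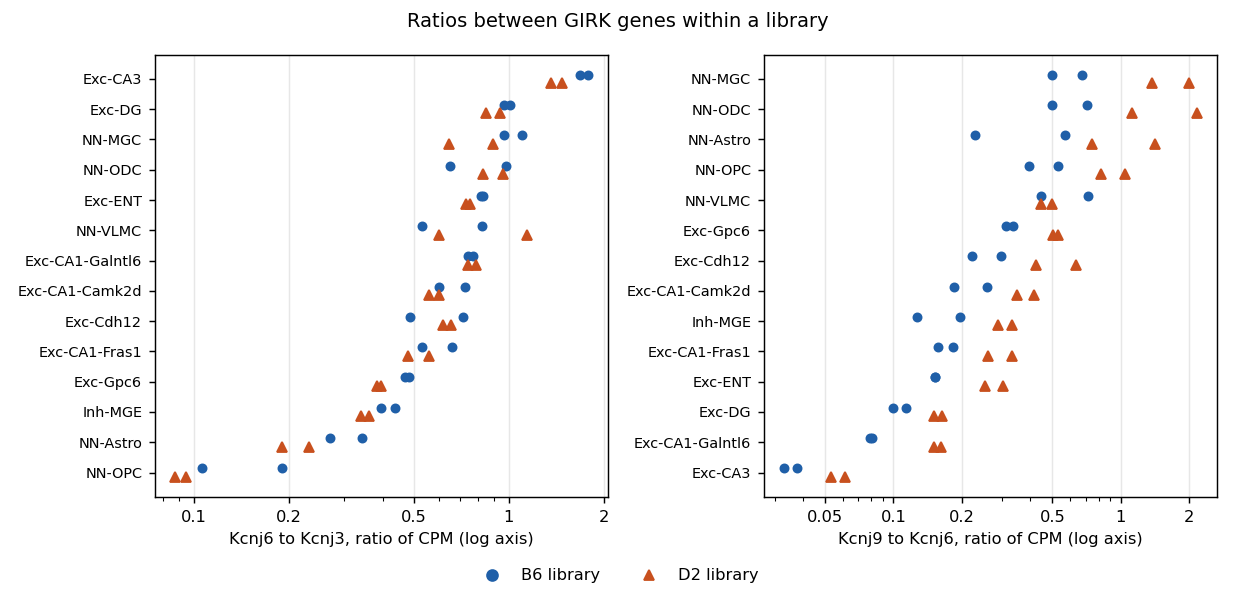
Ratio of Kcnj6 to Kcnj3 (left) and of Kcnj9 to Kcnj6 (right) within each library, as a ratio of CPM on a log axis, by cell type (blue circles B6, orange triangles D2). Exc-CA3 stands at the top on the left and at the bottom on the right, and on the right the D2 libraries lie above the B6 libraries in 13 of 14 types. No share over all pairs of genes was computed for this count, and Kcnj6 enters both ratios, on opposite sides.

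The genes whose levels over the 14 types were most like those of each GIRK gene were found among 13851 genes with a mean of at least 5 CPM. For Kcnj9 the closest was Kcnj4 (r = 0.961), which encodes the strong inward rectifier Kir2.3, followed by Syt5 (0.917), Dusp14 (0.916), Dcaf7 (0.915) and Cntn5 (0.911). For Kcnj3 they were Gm5441 (0.976), Fbxo41 (0.973), Nova2 (0.971), the orphan receptor Gpr158 (0.967) and the sodium channel Scn8a (0.964). For Kcnj6 they were Olfr539 (0.988), Hipk4 (0.986), Rasgef1a (0.984), Gm41505 (0.983) and the NMDA receptor subunit Grin2a (0.983). Gm41505 is an antisense transcript, chr16:94721894-94753438, that overlaps only the end of Kcnj6 farthest from its start site. How strand was used in counting is not given in the sources used here. Whether reads of either were counted for the other was not tested. Each value rests on 14 types that share the same libraries, and neurons and other cells lie at the ends of each relation.

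The strain comparison asked whether the GIRK genes differed between B6 and D2 in each cell type. Kcnj9 was higher in D2 throughout the excitatory neurons, Kcnj6 was somewhat lower in D2, and Kcnj3 differed little in excitatory types. In the sum over all excitatory nuclei, Kcnj9 was at 41.2 and 45.8 CPM in B6 and 62.2 and 67.8 CPM in D2. The strains did not overlap, which held in this direction for 44.6% of tested genes, and D2 was 1.49 times higher on the means. The log2 fold change (D2 minus B6) was 0.58 with a standard error (SE) of 0.0757, and edgeR's quasi-likelihood test gave an adjusted p of 1.15e-05 over all genes tested. In this sum 31% of 23714 tested genes were called higher in D2 and 17.2% lower at an adjusted p under 0.05, so that a call is common here. The p-values measure the spread between 2 libraries per strain, for which the smallest p that an exact permutation test allows is 0.33.

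Kcnj9 was called higher in D2 by edgeR in 7 of the 8 excitatory types, while 16.1% of all gene tests in these types gave a higher call in D2, from 5.03% in Exc-Cdh12 to 22.2% in Exc-DG. The types come from the same libraries and are not replicates of each other. These shares are per test and not shares of genes called in several types. The largest difference was in Exc-CA1-Galntl6, with 28.5 and 27.8 CPM in B6 and 51.4 and 50.5 CPM in D2 (log2 fold change 0.86, SE 0.107, edgeR adjusted p = 7.7e-06, with 20.9% of genes called higher). In Exc-DG the values were 56.0 and 61.1 CPM in B6 and 78.3 and 87.1 CPM in D2 (0.50, SE 0.0885, edgeR adjusted p = 0.00043). In both types the lowest D2 library lay above the highest B6 library by more than libraries of 1 strain differed from each other.

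In Exc-Gpc6, where Kcnj9 was most abundant, the B6 libraries had 97.7 and 94.8 CPM and the D2 libraries 130.5 and 143 CPM (0.50, edgeR adjusted p = 0.0022, 10.9% of genes called higher). In Exc-CA3, where it was least abundant, they had 14.2 and 13.7 CPM against 21.0 and 19.6 CPM (0.54, edgeR adjusted p = 0.018, 19.2% called higher). In Exc-ENT they had 41.0 and 40.8 CPM against 55.2 and 64.1 CPM (0.54, edgeR adjusted p = 0.0010, 16.4% called higher). The D2 libraries were thus higher at every level of the gene. The remaining calls were Exc-CA1-Camk2d, with 45.3 and 56.1 CPM against 67.4 and 80.5 CPM (0.53, edgeR adjusted p = 0.025, 12% called higher), and Exc-CA1-Fras1, with 46.0 and 44.5 CPM against 58.1 and 63.0 CPM (0.42, edgeR adjusted p = 0.013, 16.1% called higher). Exc-Cdh12, the excitatory type with the fewest nuclei (76 to 187 per library), had 61.1 and 69.3 CPM against 95.5 and 130.3 CPM and did not pass (0.75, edgeR adjusted p = 0.053).

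The D2 libraries of Kcnj9 lay above the B6 libraries without overlap in 8 of 8 excitatory types, against 34.2% of all gene tests in these types. Since the types share libraries, this is not 8 replications, and the share is per test, not of genes separate in every type. The estimates kept their sign in each excitatory type with any library left out. The calls were less firm: DESeq2 called 2 types, Exc-CA1-Galntl6 (adjusted p = 1.87e-05) and Exc-DG (adjusted p = 0.00129), in place of 7. By edgeR the calls in Exc-DG, Exc-CA1-Galntl6, Exc-Gpc6 and Exc-ENT held without each library in turn. Exc-CA1-Camk2d was not called without D2 library 2 (adjusted p = 0.090) or D2 library 3 (0.37), Exc-CA1-Fras1 without D2 library 3 (0.12), and Exc-CA3 without B6 library 3 (0.052) or D2 library 2 (0.12). Exc-Cdh12 passed without B6 library 2 (0.037), B6 library 3 (0.038) or D2 library 2 (0.024).

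Outside the excitatory types Kcnj9 was not called by edgeR. In Inh-MGE it was at 27.1 and 22.2 CPM in B6 and 34.1 and 30.0 CPM in D2 (0.39, SE 0.173, edgeR adjusted p = 0.13). Over all non-neuronal nuclei it was at 13.2 and 14.5 CPM in B6 and 17.8 and 17.1 CPM in D2 (0.34, SE 0.154, edgeR adjusted p = 0.13). Both pairs of strains were separate, but these values rest on 86 to 138 counts per library. Of all genes tested, 33% in Inh-MGE and 35.7% over all non-neuronal nuclei were separate in this direction. The gene had too few counts to test in VLMC, with 4 and 10 counts in B6 and 4 and 4 in D2, and there its D2 libraries (7.66 and 14.4 CPM) were below B6 (18.6 and 22.4 CPM). Leaving out a library brought some of these types past the threshold, namely astrocytes without B6 library 2 (1.06, adjusted p = 0.012) or D2 library 3 (0.98, 0.0081) and NN-ODC without B6 library 3 (0.97, 0.036) or D2 library 2 (0.98, 0.032). In the 13 types tested the log2 fold change of Kcnj9 was above 0, from 0.17 in NN-MGC to 0.86.

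**Figure D3:**
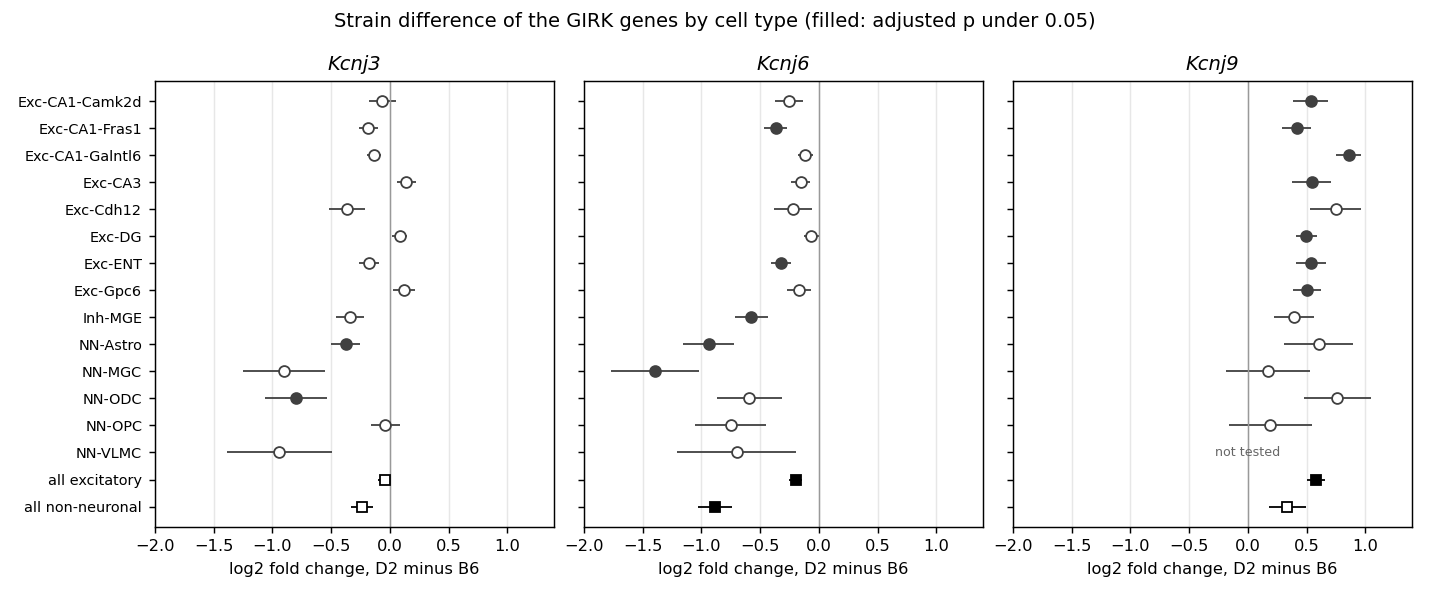
Log2 fold change of each GIRK gene between the strains (D2 minus B6), with the SE as the bar, in 14 cell types and in 2 sums over types (squares), where filled symbols passed an adjusted p of 0.05 in edgeR. Kcnj9 lies to the right of 0 in each type tested and Kcnj6 to the left in each, while Kcnj3 lies on both sides among excitatory types.

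Kcnj6 was lower in D2. Over all excitatory nuclei it was at 379 and 379 CPM in B6 and 328 and 334 CPM in D2, a difference of -0.20 on the log2 scale (SE 0.0552, edgeR adjusted p = 0.0083). Without D2 library 2 or D2 library 3 the adjusted p was 0.080 or 0.061. D2 was below B6 without overlap in this sum, as were 28.9% of tested genes, and in 14 of 14 cell types, against 26.3% of all gene tests in these types. The edgeR call was made in 5 of 14 types, against 9.91% of gene tests called lower over the types, and DESeq2 made it in 3. The types share libraries, and the shares over types are per test, not of genes that met the rule in several types. The excitatory sum, here and for Kcnj9, mixes types whose nuclei were not in the same proportions in each library. Exc-DG, highest for Kcnj6, had 1489 and 1336 nuclei in B6 and 1233 and 1043 in D2. Exc-CA1-Camk2d, the lowest excitatory type for Kcnj6, had 293 and 335 against 441 and 347. The part of this mixture in the differences of the sum was not tested.

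Among excitatory types Kcnj6 was called in Exc-CA1-Fras1, with 252 and 282 CPM in B6 and 222 and 190.3 CPM in D2 (-0.37, edgeR adjusted p = 0.0041, 12.3% of genes called lower). It was also called in Exc-ENT, with 269.6 and 267 CPM against 218 and 211 CPM (-0.32, edgeR adjusted p = 0.0036, 11.6% called lower). In Exc-DG, where Kcnj6 was most abundant, the values were 561 and 537 CPM in B6 and 517 and 534 CPM in D2 (-0.06, SE 0.0631, edgeR adjusted p = 0.48). The smallest gap between the strains was thus in the type with the most Kcnj6. In Inh-MGE, the values were 138 and 174 CPM in B6 and 118 and 90.3 CPM in D2 (-0.58, SE 0.14, edgeR adjusted p = 0.0066, 7.84% called lower). Without D2 library 3 neither Exc-CA1-Fras1 (-0.26, adjusted p = 0.12) nor Inh-MGE (-0.40, adjusted p = 0.12) was called. In Inh-MGE the neuronal and inhibitory markers Snap25, Rbfox3, Gad1 and Gad2 were not called (edgeR adjusted p from 0.51 to 0.80), and the excitatory marker Slc17a7 was at 20.2 and 18.8 CPM in B6 and 16.1 and 13.4 CPM in D2. The libraries differed in interneuron markers. The MGE list (Lhx6, Sst, Pvalb), most of it Sst, summed to 1603 and 723 CPM in B6 and 1278 and 2158 CPM in D2, so that the library with the most Kcnj6 had the least of it and the library with the least Kcnj6 the most. Markers of CGE interneurons summed to 30.8 and 48.5 CPM in B6 and 18.0 and 19.999 CPM in D2, and among them Adarb2 was called lower (-1.50, edgeR adjusted p = 0.00028). Of 11 marker lists of other classes, D2 was below B6 without overlap in 6 and above in 1. Of all genes tested in Inh-MGE, 25.2% were below and 33% above in this way. The part of these markers in the Kcnj6 difference was not tested.

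In the non-neuronal types Kcnj6 was near the level of transcripts that these cells should lack. Over all non-neuronal nuclei it was at 26.1 and 30.0 CPM in B6 and 15.6 and 14.8 CPM in D2 (-0.88, SE 0.142, edgeR adjusted p = 0.00037, 12% of genes called lower). As a share of its own level in excitatory nuclei of the same library this was 4.45% to 7.90%. For Rbfox3, which encodes the neuronal antigen NeuN, the share was 4.20% to 6.97%, and for Slc17a7, the vesicular glutamate transporter of excitatory neurons, 11.4% to 21.1%. Rbfox3 and Slc17a7 were lower in D2 in the same sum. Rbfox3 was at 26.5 and 30.3 CPM in B6 and 19.3 and 16.7 CPM in D2 (-0.66, edgeR adjusted p = 0.0033), and Slc17a7 was at 67.0 and 59.0 CPM against 49.4 and 39.0 CPM (-0.51, edgeR adjusted p = 0.0078). Snap25 had a difference of -0.34 (edgeR adjusted p = 0.089). The inhibitory markers were not called: Gad1 had 0.12 (edgeR adjusted p = 0.60), Gad2 -0.57 (0.15) and Slc32a1 -0.76 (0.056). The part of these markers in the lower Kcnj6 of D2 non-neuronal nuclei was not tested. By type, the call was made in astrocytes, with 21.8 and 31.0 CPM in B6 and 13.5 and 14.1 CPM in D2 (-0.94, edgeR adjusted p = 0.00078, 11.7% called lower), and in NN-MGC, with 65.1 and 42.9 CPM against 19.6 and 20.1 CPM (-1.39, SE 0.377, edgeR adjusted p = 0.024, 5.12% called lower). DESeq2 called neither (adjusted p = 0.087 and 0.57). Markers of other cell types also moved within these types. In NN-MGC the neuronal list (Snap25, Rbfox3) summed to 289 and 299 CPM in B6 and 149.7 and 209.6 CPM in D2 and the astrocyte list to 383 and 331 CPM against 260.05 and 224 CPM. D2 was below B6 without overlap in 10 of 13 lists of other classes there and above in 2, against 24.4% and 25.9% of all genes tested in this type. In astrocytes D2 was below in 8 of 13 and above in 0, against 28.1% and 32.4% of all genes tested there. The oligodendrocyte list was at 299 and 268 CPM in B6 against 141 and 122 CPM in D2. The part of these markers was not tested. Without B6 library 3 the astrocytes had an adjusted p of 0.051, and NN-MGC had 0.12 without B6 library 2 and 0.058 without D2 library 3.

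**Figure D4:**
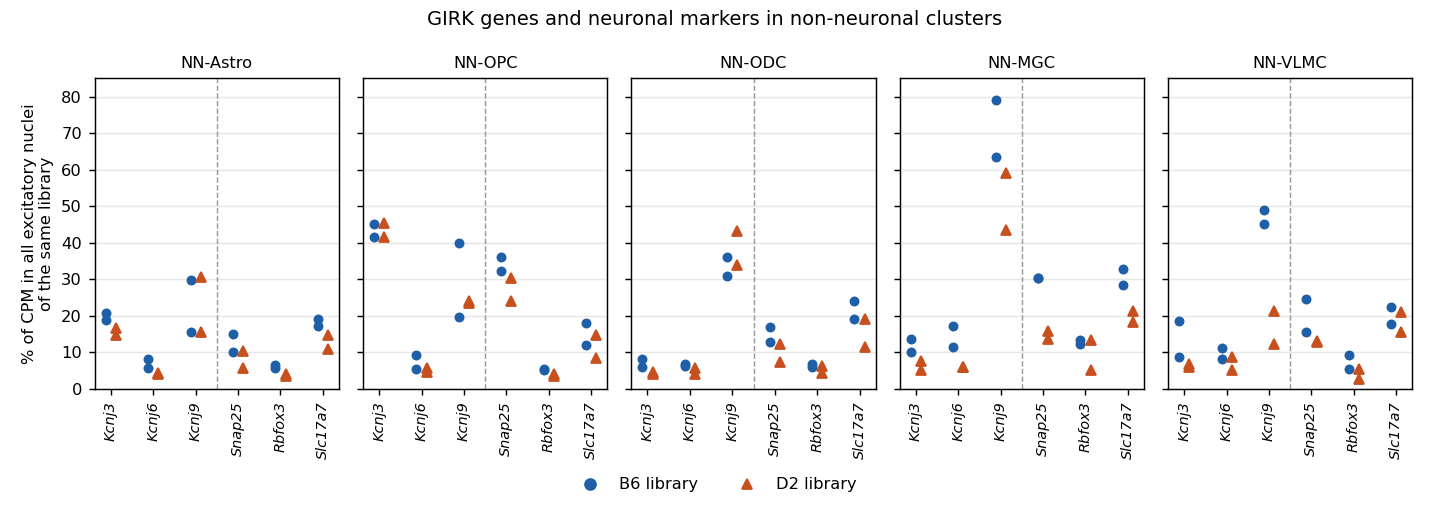
Level of the GIRK genes and of 3 neuronal markers in each non-neuronal type, as a percent of the CPM in all excitatory nuclei of the same library (blue circles B6, orange triangles D2). The ranges of Kcnj6 and Rbfox3 overlap in each type, whereas Kcnj3 in NN-OPC (41.6% to 45.3%) lies far above Kcnj6, Rbfox3 and Slc17a7. Snap25 (24.1% to 36.0%) and Kcnj9 (19.6% to 40.0%) lie nearer to it there, and Kcnj9 in NN-MGC is at 43.4% to 79.0%.

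Among the non-neuronal types, Kcnj3 was highest in oligodendrocyte precursors. There it was at 193 and 183 CPM in B6 and 193 and 173 CPM in D2, between 41.6% and 45.3% of its excitatory level. In the same nuclei Kcnj6 was at 4.53% to 9.16%, Rbfox3 at 3.43% to 5.44%, Slc17a7 at 8.40% to 18.1% and Snap25 at 24.1% to 36.0% of theirs. Kcnj9 was at 19.6% to 40.0% there, on 11 to 29 counts per library, and at 43.4% to 79.0% in NN-MGC. In mature oligodendrocytes (NN-ODC) Kcnj3 was at 3.95% to 8.15%, and in astrocytes at 14.6% to 20.7%. The 4 libraries of NN-OPC lay above those of each other non-neuronal type. The strains overlapped in NN-OPC (-0.04, SE 0.124, edgeR adjusted p = 0.90).

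Over all excitatory nuclei Kcnj3 was at 429 and 438 CPM in B6 and 426 and 416 CPM in D2, a difference of -0.04 (SE 0.0549, edgeR adjusted p = 0.56). No excitatory type was called in edgeR or DESeq2, although Exc-CA1-Fras1 passed in edgeR without B6 library 3 (-0.26, adjusted p = 0.037). The D2 libraries were above B6 in Exc-CA3, Exc-DG and Exc-Gpc6, below B6 in 4 excitatory types and overlapping in Exc-CA1-Camk2d, with log2 fold changes from -0.36 to 0.14. Of all genes tested in an excitatory type, 25.1% to 38.6% were above and 22.4% to 28.4% below in this way. Lower values in D2 were called in astrocytes, with 80.3 and 90.5 CPM in B6 and 70.8 and 60.9 CPM in D2 (-0.38, edgeR adjusted p = 0.023), and in NN-ODC, with 26.1 and 35.7 CPM against 19.5 and 16.4 CPM (-0.80, edgeR adjusted p = 0.033, 8.93% of genes called lower). DESeq2 called neither (adjusted p = 0.31 and 0.50). Excitatory markers (Slc17a7, Slc17a6) summed to 63.8 and 59.5 CPM in B6 and 48.9 and 38.5 CPM in D2 in astrocytes, and to 78.2 and 65.8 CPM against 63.1 and 40.7 CPM in NN-ODC. In NN-ODC D2 was below B6 in 3 of 13 lists of other classes and above in 4, near the 26.7% and 29.5% of all genes tested there. The part of these markers in the Kcnj3 calls was not tested. Neither call held without B6 library 3 (adjusted p = 0.18 and 0.29) or D2 library 3 (0.35 and 0.22), and NN-ODC had 0.053 without D2 library 2. Without B6 library 2 the type count was 4, as Inh-MGE (-0.43, adjusted p = 0.0035) and Exc-Cdh12 (-0.51, adjusted p = 0.0044) then passed. In Inh-MGE the 4 libraries gave 352 and 399 CPM in B6 and 328 and 266 CPM in D2 (-0.34, edgeR adjusted p = 0.055), and without D2 library 2 the adjusted p was 0.012. As for Kcnj6, the library with the most Kcnj3 had the lowest sum of MGE markers and the library with the least had the highest, and their part was not tested.

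Whether the strain difference itself varied between cell types was tested in 1 edgeR fit over all 14 types, in which 13.9% of 21520 genes passed. Kcnj9 did not pass (adjusted p = 0.52), so its larger fold in Exc-CA1-Galntl6 was not shown to differ from that in other types. The difference between Exc-CA1-Galntl6 and Exc-DG was 0.36 on the log2 scale (SE 0.169, edgeR adjusted p = 0.61). Kcnj3 (edgeR adjusted p = 0.0017) and Kcnj6 (edgeR adjusted p = 0.0090) passed. Against Exc-DG, the single types that passed were astrocytes (-0.83, edgeR adjusted p = 0.015) and NN-MGC (-1.33, edgeR adjusted p = 0.045) for Kcnj6, and NN-ODC (-0.91, edgeR adjusted p = 0.027) for Kcnj3, where 4.37%, 2.03% and 3.4% of genes passed. No excitatory type passed for any of the 3 genes, and in Inh-MGE Kcnj6 had -0.50 (edgeR adjusted p = 0.072). The result for Kcnj6 had an adjusted p of 0.053 without B6 library 3 and 0.53 without D2 library 3. The result for Kcnj3 had 0.10 without B6 library 3, 0.068 without D2 library 2 and 0.35 without D2 library 3.

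With Kcnj9 higher and Kcnj6 lower in D2, their ratio within a library differed between the strains. Over all excitatory nuclei the ratio of Kcnj9 to Kcnj6 CPM was 0.109 and 0.121 in B6 and 0.190 and 0.203 in D2, a ratio 1.71 times higher in D2. The D2 libraries were above the B6 libraries in 8 of 8 excitatory types and in 13 of 14 types, with overlap in VLMC. The ratio of Kcnj9 to Kcnj3 was higher in D2 in 8 of 8 excitatory types and 12 of 14 types. The ratio of Kcnj6 to Kcnj3 was lower in D2 in 4 of 8 excitatory types, Exc-CA3, Exc-DG, Exc-ENT and Exc-Gpc6, and overlapped in the others. Ratios were not tested, since they restate the values of the same libraries. No share over all pairs of genes was computed, so these counts of types have no background beside them, and the types share libraries. For single genes, D2 was above B6 without overlap in 34.2% of all tests in the excitatory types.

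Accessibility was measured at 44 peaks in Kcnj3, 59 in Kcnj6 and 5 in Kcnj9, counting each gene's span and 2 kb upstream. In Exc-DG no peak of the 3 genes passed edgeR's test (5.97% of 297387 peaks did). DESeq2 also called none, and edgeR called 1 without D2 library 2. In simulated counts modelled on Exc-DG peaks, edgeR recovered 8.51% of log2 changes of 0.5 and 44.7% of log2 changes of 1. A peak without a call is thus not shown to be equal in the strains. In Inh-MGE no peak passed in edgeR (0.87% of all did) or DESeq2. Over all excitatory nuclei 1 peak passed, where 10.7% of all peaks did. It lay in an intron of Kcnj6, chr16:94882873-94884172, 114.2 kb from the start, with 16.3 and 16.96 CPM in B6 and 18.7 and 19.2 CPM in D2 (0.19, SE 0.0617, edgeR adjusted p = 0.036). Its accessibility was thus higher in D2, whereas Kcnj6 RNA was lower in D2. DESeq2 did not call it.

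The Kcnj9 start-site peak, chr1:172328820-172329491, reaches into the upstream bases printed above. Over all excitatory nuclei it had 15.8 and 16.3 CPM in B6 and 18.5 and 17.7 CPM in D2, without overlap but short of the threshold (0.18, SE 0.0629, edgeR adjusted p = 0.064). It passed without D2 library 3 (0.22, adjusted p = 0.047). In Exc-DG the values were 16.2 and 19.2 CPM against 20.6 and 19.998 CPM (0.20, edgeR adjusted p = 0.19). The D2 libraries were above B6 in 6 of 9 types, against 21.6% of all peak tests in these types, a share per test in types that share libraries. The start-site peak of Kcnj3 was higher in D2 in 5 of 9 types, and over all excitatory nuclei it had 36.4 and 35.3 CPM in B6 and 38.4 and 39.5 CPM in D2 (0.12, edgeR adjusted p = 0.12). The start-site peak of Kcnj6 was higher in D2 in 1 type and lower in 2 (19.6% of peak tests were lower), and over all excitatory nuclei the strains overlapped (-0.03, SE 0.0547, edgeR adjusted p = 0.84).

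**Figure D5:**
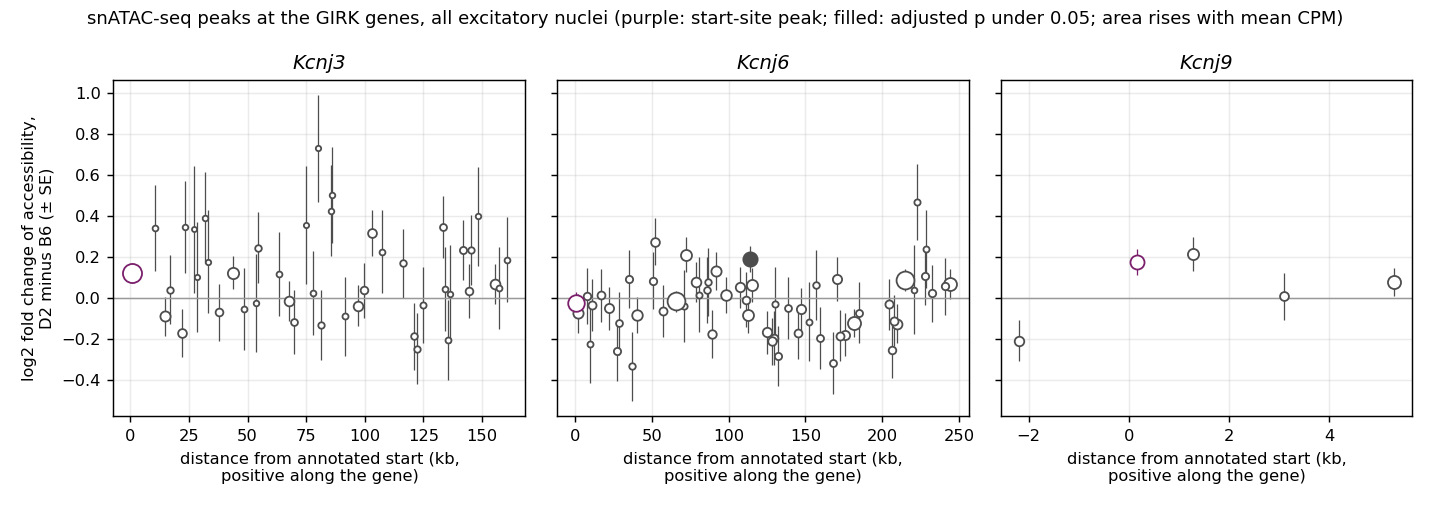
Log2 fold change of accessibility between the strains (D2 minus B6, bars SE) at each peak of the GIRK genes over all excitatory nuclei, against distance from the annotated start in kb, with the start-site peak in purple, larger symbols for higher mean CPM and a filled symbol for the 1 peak that passed. The filled Kcnj6 peak lies 114.2 kb into the gene, and the Kcnj9 start-site peak lies at 0.18.

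Across the 9 types with both assays, the accessibility of the start site followed the RNA level for Kcnj3 and Kcnj9 and not for Kcnj6. The Kcnj3 start-site peak was most open in Exc-DG (43.8 CPM) and least open in Exc-CA3 (27.1 CPM), and its correlation with the RNA over types was r = 0.886. The Kcnj9 start-site peak was most open in Exc-Gpc6 (21.8 CPM) and least open in Exc-CA3 (13.8 CPM), the same ends as for its RNA, with r = 0.779. The Kcnj6 start-site peak was most open in Inh-MGE (32.8 CPM), where its RNA was lowest, and least open in Exc-CA3 (23.2 CPM), with r = -0.599. Between its most and least open types it changed by only 1.41 times. These coefficients over 9 types that share libraries are descriptions.

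Receptors that open GIRK channels were called in both directions in D2 excitatory neurons. Of 20 receptor genes tested over all excitatory nuclei, 5 were called higher and 9 lower by edgeR, against 48.2% of all genes called, and the median log2 fold change was -0.08, against 0.09 for all genes. Both subunits of the GABA-B receptor were lower, Gabbr2 at 437 and 436 CPM in B6 and 390 and 368 CPM in D2 (-0.20, edgeR adjusted p = 0.0080) and Gabbr1 with -0.23. The adenosine A1 receptor Adora1 (-0.33), the muscarinic receptors Chrm2 (-0.38) and Chrm4 (-0.97), the mu and kappa opioid receptors Oprm1 (-0.26) and Oprk1 (-1.34), the somatostatin receptor Sstr4 (-0.78) and the glutamate receptor Grm3 (-0.19) were also called lower. The higher genes were the cannabinoid receptor Cnr1 (0.37), the delta opioid receptor Oprd1 (0.61), Grm2 (0.45), Sstr1 (0.93) and Sstr2 (0.27). In Exc-DG, 2 were called higher (Oprd1, Sstr1) and 1 lower (Gabbr2) of 15 tested, against 22.2% and 13.8% of all genes in this type.

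Among 13 G protein subunit genes, 2 were called higher and 3 lower over all excitatory nuclei, a share below the 48.2% of all genes called in this sum. Gng3, a neuronal gamma subunit, was at 34.1 and 33.6 CPM in B6 and 49.4 and 51.1 CPM in D2 (0.57, edgeR adjusted p = 6.3e-06), and the beta subunit Gnb4 had 0.60. Gnao1, which encodes the abundant alpha-o subunit, had -0.24, Gng7 had -0.22 and the scarce Gnb3 had -1.19. Among 14 regulators, where 6 were called against the same 48.2%, Rgs4 (0.72) and Rgs8 (0.50) were called higher, and Rgs7 (-0.42), Rgs9 (-1.44), Gpr158 (-0.22) and Kctd8 (-0.53) lower. The RGS proteins speed the closing of GIRK channels, Gpr158 binds Rgs7, and Kctd8 is an auxiliary subunit of the GABA-B receptor. Rgs9 had the largest change of the group, with 25.6 and 27.3 CPM in B6 and 10.0 and 9.51 CPM in D2 (edgeR adjusted p = 4.0e-09), while Kctd16, at 796 to 897 CPM, was not called (0.12, edgeR adjusted p = 0.086). The median log2 fold changes were -0.07 for the G protein subunits and 0.0049 for the regulators.

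Of 11 other inward rectifier genes 8 were tested over all excitatory nuclei. Kcnj4, whose pattern over types was closest to that of Kcnj9, was at 9.61 and 11.03 CPM in B6 and 12.2 and 14.8 CPM in D2 (0.38, edgeR adjusted p = 0.016). Kcnj2 (0.74) and Kcnj14 (2.76) were also called higher and Kcnj13 (-0.45) lower, so that 4 of 8 were called, near the 48.2% of all genes. Kcnj14 was at 0.229 and 0.201 CPM in B6 and 1.06 and 1.95 CPM in D2.

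Protein-coding genes within 250 kb of the GIRK genes moved in both directions. Around Kcnj9, 14 neighbours were tested over all excitatory nuclei, of which 3 were called higher in D2 (Pex19, Pea15a, Atp1a4) and 3 lower (Igsf8, Casq1, Ncstn), near the share over all genes (31% higher and 17.2% lower). Igsf8, which lies on the opposite strand and ends 660 bases from the 3′ end of Kcnj9, was at 84.3 and 74.8 CPM in B6 and 59.9 and 62.3 CPM in D2 (-0.38, SE 0.0727, edgeR adjusted p = 0.00045). The nearest gene thus differed in the opposite direction to Kcnj9. Pex19, a peroxisome assembly factor 184 kb away, was at 19.9 and 21.5 CPM in B6 and 33.2 and 33.8 CPM in D2 (0.70, edgeR adjusted p = 3.0e-06). Kcnj10, the glial inward rectifier next to Kcnj9, was called higher in D2 in astrocytes, with 67.3 and 75.7 CPM in B6 and 120 and 146 CPM in D2 (0.89, edgeR adjusted p = 1.6e-07, with 14.5% of genes called higher). In excitatory nuclei it was at 1.37 to 2.06 CPM and was not called.

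Beside Kcnj6, the kinase Dyrk1a was lower in D2 over all excitatory nuclei (-0.28, edgeR adjusted p = 0.0016) and Vps26c was not called (-0.05, edgeR adjusted p = 0.71). The antisense transcript Gm41505 overlaps Kcnj6 and moved with it, at 118 and 138 CPM in B6 and 90.8 and 98.6 CPM in D2 (-0.44, edgeR adjusted p = 0.00025). An antisense transcript inside Kcnj9, Gm36937, was at 0.176 to 0.228 CPM over all excitatory nuclei, far below Kcnj9 itself. No protein-coding gene lay within 250 kb of Kcnj3.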

How the data were processed

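Frozen ventral hippocampus of both strains was profiled by droplet snRNA-seq and snATAC-seq. The authors deposited raw counts per gene and raw counts per peak, summed over the nuclei of each cell type and library. Per the labels and the study's methods, RNA reads were aligned with Cell Ranger 6.0.2 with intronic reads retained, ATAC reads with Cell Ranger ATAC 2.0.0, and nuclei were clustered with Seurat 4.0.5 after doublets were removed with DoubletFinder. B6 reads were mapped to mm10 and D2 reads to mm10 with D2 SNPs. Peaks were called per sample and merged. The GENCODE release is not given in the sources used here.

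The GIRK genes and the lists of receptors, G proteins, regulators, inward rectifiers and markers were chosen with earlier results of these data known. The columns of the 2 tables were placed by strain, since their library numbers (2 and 3) differ from those of the labels (1 and 2), and 12 RNA and 24 ATAC columns were not used. Counts as deposited were tested in R 4.3.3 with edgeR 4.0.16 (TMM scaling, filterByExpr, quasi-likelihood test, D2 minus B6), separately in each cell type and in sums over the 8 excitatory and 5 non-neuronal types, with Benjamini-Hochberg adjustment over all genes or peaks tested and a threshold of 0.05. Peaks needed at least 10 counts. The strain effect was compared between types in 1 fit with terms for library, type and type by strain, with Exc-DG as the reference, in which types of 1 library are not independent libraries. The genes that could be named were the GIRK genes, those of the lists, protein-coding genes within 250 kb of a GIRK gene, and for each GIRK gene the 5 with the highest Pearson r of log2(CPM + 1) over types. The antisense transcripts Gm41505 (at Kcnj6) and Gm36937 were looked at for their overlap. CPM uses the TMM library size. Figures were drawn in Python 3.11.15 with matplotlib 3.10.9. The models were tested on simulated data. The CA1 list is not reported here in full. Alternatives were DESeq2 1.42.0, other scaling and filters, a block on the library number and leaving out each library. ATAC libraries held between 85265745 and 114176027 counts in the 9 types used, and RNA libraries between 5968 and 8128 nuclei. With 2 libraries per strain, each of about 2 animals, error terms rest on few samples.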

Additional observations from a re-analysis of the deposited data

Results flagged for a closer look

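The strain effect differed between cell types for 2 of the 3 genes in the edgeR fit over all types, with an adjusted p of 0.00173 for Kcnj3 and 0.00898 for Kcnj6. For Kcnj6 the log2 fold change in astrocytes lay -0.83 from that in Exc-DG, and the one in NN-MGC lay -1.33 from it. For Kcnj3 the log2 fold change in NN-ODC lay -0.91 from that in Exc-DG. Each of these types is non-neuronal, and the summed non-neuronal libraries of D2 also held less Rbfox3 (-0.66) and Slc17a7 (-0.51), whose part in these differences was not tested. By type, edgeR called these 2 markers in astrocytes only (-0.76, adjusted p = 0.0045, and -0.48, adjusted p = 0.0098). They were not called in NN-MGC (-0.51 and -0.56) or NN-ODC (-0.37 and -0.48), while Snap25 was called lower in NN-MGC (-0.73, edgeR adjusted p = 0.0078). The single differences were each lost without D2 library 2 (adjusted p = 0.125 for astrocytes, 0.304 for NN-MGC and 0.215 for NN-ODC) or D2 library 3 (0.151, 0.408 and 0.413). Those of astrocytes (0.435) and NN-ODC (0.614) were also lost without B6 library 3, and that of NN-MGC without B6 library 2 (0.333).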

How the results depend on the processing

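The higher Kcnj9 and the lower Kcnj6 of D2 kept their sign in the sums over types in each alternative, while the number of types called depended on the tool. DESeq2 called 0 types for Kcnj3, 3 for Kcnj6 and 2 for Kcnj9. Leaving out 1 library gave 0 to 4 types for Kcnj3, 2 to 5 for Kcnj6 and 6 to 9 for Kcnj9. The log2 fold change without 1 library ran from -0.21 to -0.19 for Kcnj6 over all excitatory nuclei, where the call was lost without D2 library 2 or 3, and from 0.50 to 0.65 for Kcnj9, where it was kept. The adjusted p for a strain effect that differed between types ran from 0.0173 to 0.354 for Kcnj3 and from 5.42e-07 to 0.528 for Kcnj6. Peaks called without 1 library numbered 0 to 1 in Exc-DG and 1 to 2 over all excitatory nuclei, where DESeq2 called 0 and the replicate block 3. Counted per nucleus, the ratios of the excitatory types highest and lowest in CPM were 1.78 (Kcnj3), 2.01 (Kcnj6) and 4.44 (Kcnj9). The sign turned for Kcnj3 in NN-OPC without D2 library 3 (-0.12 to 0.05), for Kcnj9 in NN-MGC without D2 library 3 (range without 1 library -0.18 to 0.40) and in NN-OPC without B6 library 2 (-0.25 to 0.93), and for the start-site peak of Kcnj6 over all excitatory nuclei without D2 library 2 (-0.062 to 0.012). The start-site peak of Kcnj3 in Inh-MGE turned with the replicate block (3.64e-05), and without B6 library 3 or D2 library 2 (-0.12 to 0.12). None of these was called. The cause was not tested.

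Same-numbered RNA libraries did not deviate together in scaled levels (correlations from -0.12 to 0.059 over the 14 types). This check leaves out depth and was not run on the ATAC libraries. In Exc-DG, ATAC libraries 2 and 3 had 11670 and 19620 counts per nucleus in B6 and 12791 and 16596 in D2. Whether the number stands for anything the libraries share was not tested. A block on the number called 8 types for Kcnj9, 5 for Kcnj6 and 2 for Kcnj3, and brought the start-site peaks of Kcnj3 and Kcnj9 over all excitatory nuclei to adjusted p = 0.047 and 0.033. In Inh-MGE, where the correlation was lowest, pairing the numbers crosswise, an alternative chosen after seeing the data, called 4226 genes in edgeR in place of 3173, and 2 of the GIRK genes in place of 1. Depth limits Kcnj9 in non-neuronal types most, with 4 to 65 counts per type and library.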
